A study of Mus musculus with 24 samples.

Results

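The mRNA levels of 7 genes for cell-to-cell coupling and excitability were measured in the mouse left ventricle: the connexins Gja1, Gja5 and Gjc1, the pannexin Panx1, the sodium channel subunit Scn4b and the pacemaker channels Hcn2 and Hcn4. They were chosen by gene symbol, and all 7 were found among the 14912 genes of the table. The hypertensive-LVH group held left ventricles of 12 mice that received angiotensin II (ANG II) for 7 days at a dose of 1500 ng/kg/min. The control group held left ventricles of 12 mice infused with saline for the same time. All mice were male wild-type C57BL/6J animals with a subcutaneous osmotic mini-pump, and their age was not given. Whole ventricular tissue was sequenced, so every value is a mixture of cell types. Levels are in FPKM, the number of fragments of a gene scaled to transcript length and to the mapped fragments of the sample, so that levels of different genes can be set side by side.

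Connexins form gap junctions, the channels through which current passes from one heart muscle cell to the next. Gja1 encodes Cx43, the main connexin of working ventricular muscle. Gja5 encodes Cx40, which is known from atrial muscle, the ventricular conduction system and the endothelium of arteries. Gjc1 encodes Cx45, a connexin of the conduction system and of non-muscle cells. Pannexin 1, the product of Panx1, forms large membrane channels that release ATP. Scn4b encodes an auxiliary subunit of the voltage-gated sodium channel that carries the upstroke of the action potential. Hcn2 and Hcn4 encode channels that open on hyperpolarization and carry the pacemaker current, with Hcn4 as the main form of the sinus node.

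By the ratio of mean FPKM, in the hypertensive-LVH group Panx1 was 2.46-fold higher and Scn4b was 2.24-fold lower than in the control group, and Hcn2 was 1.25-fold lower. These 3 of the 7 genes passed the test, which was limma on log2(FPKM + 1) with an adjusted p under 0.05. Of the 14026 genes tested, 33.5% passed it, 20.9% as higher and 12.6% as lower, so that the share among the members was near that of all genes. With quantile normalization the split over all genes moved from 2928 higher and 1769 lower to 1922 higher and 2930 lower, and the same 3 members passed with the same directions. Panx1 as higher and Scn4b as lower also passed an absolute log2 fold change of 0.5, which 5.92% of the genes did, 4.52% as higher and 1.4% as lower. Gja1, Gja5, Gjc1 and Hcn4 did not pass. The ranges of the groups overlapped for all 7 genes, whereas 0.756% of the genes tested had groups without overlap.

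**Figure D1:**
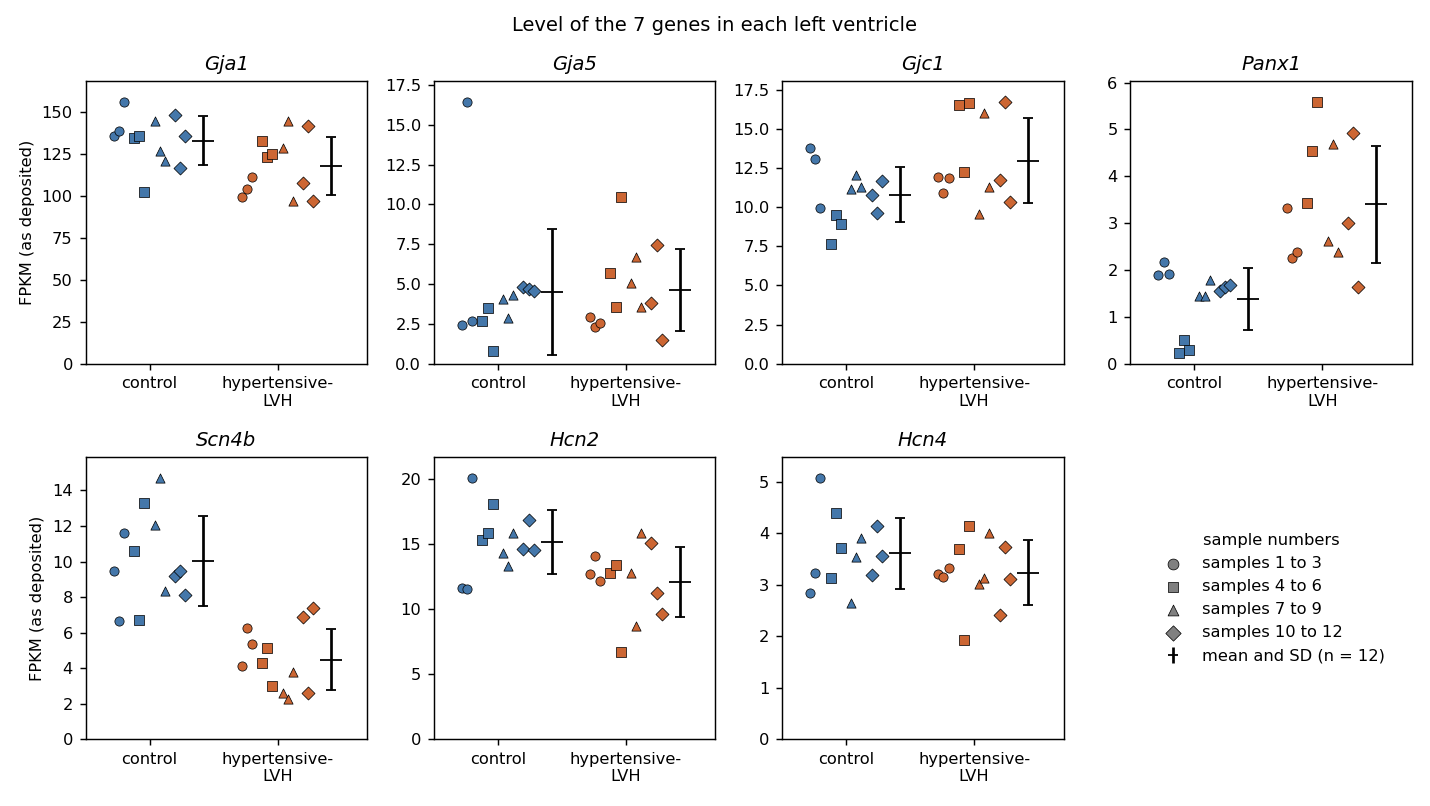
Each panel plots the FPKM of a gene as deposited (vertical axis, from 0) in the 12 control and 12 hypertensive-LVH left ventricles. Marker shapes give the sample numbers, and bars give the mean and SD. Of the hypertensive-LVH samples, 11 lie above every control sample for Panx1 and 10 lie below every control sample for Scn4b.

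The members differed widely in level. In the control group the order from the highest mean was Gja1, Hcn2, Gjc1, Scn4b, Gja5, Hcn4 and Panx1. Gja1 lay above all other members in every sample, and its mean over all samples exceeded that of 96.1% of the genes of the table. Panx1 lay below Hcn4 in all 12 control samples. The other neighbours in this order overlapped in range. In the hypertensive-LVH group the order was Gja1, Gjc1, Hcn2, Gja5, Scn4b, Panx1 and Hcn4, and every pair of neighbours below Gja1 overlapped. Panx1 was above Hcn4 in 6 of these 12 samples.

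The RefSeq promoters of Panx1 and Hcn2 are shown because both genes passed the test and because these 250 bases end at the start of the gene in both RefSeq and GENCODE. A promoter was found for 6 of the 7 members, all but Gjc1. The windows were searched on both strands for 7 motifs: the AP-1 site TGANTCA, found in 6.75% of 32851 mouse promoters of this length, the cAMP response element TGACGTCA (1.55%), the T-box site TCACACC (3.33%), the GATA site AGATAA (9.99%), the GC box GGGCGG (32.7%), the TATA box TATAAA (12.4%) and the NKX2-5 site TNAAGTG (10.1%). Capitals mark a match, and both sequences run 5′ to 3′ on the strand of the gene in the build GRCm38.p6. The first lies at chr9:15045479-15045728 on the minus strand and the second at chr10:79716384-79716633 on the plus strand.
Panx1: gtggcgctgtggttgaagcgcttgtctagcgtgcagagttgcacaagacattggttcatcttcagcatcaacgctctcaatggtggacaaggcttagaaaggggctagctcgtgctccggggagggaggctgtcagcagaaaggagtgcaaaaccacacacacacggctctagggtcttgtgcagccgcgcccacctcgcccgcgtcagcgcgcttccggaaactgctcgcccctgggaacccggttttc
Hcn2: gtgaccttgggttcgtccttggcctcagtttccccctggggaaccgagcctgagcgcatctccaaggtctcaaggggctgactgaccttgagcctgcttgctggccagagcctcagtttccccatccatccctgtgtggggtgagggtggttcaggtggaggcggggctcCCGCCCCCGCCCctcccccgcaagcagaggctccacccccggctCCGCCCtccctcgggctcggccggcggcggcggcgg
The Panx1 window held none of the 7 motifs, and 59.6% of its bases were G or C, against a median of 52.4% over all promoters. In the Hcn2 window 70.4% of the bases were G or C, and the 3 matches were GC boxes on the other strand, a pair of them adjacent. Upstream of Gja1 an AP-1 match began 19 bases before the RefSeq start, where the window ends, and a GATA match 135 bases before it. A match is a description of the letters in these windows, and binding was not measured.

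None of the 3 connexins passed the test in limma, where Gja1 and Gjc1 had an unadjusted p under 0.05, as did 6270 of the 14026 genes tested, and none passed with the Wilcoxon rank-sum test. Gja1 (chr10:56377330-56402513, plus strand, all gene positions from GENCODE vM21 on GRCm38) was measured at 118 ± 17.2 FPKM (SD, n = 12) in the hypertensive-LVH group, from 96.9 to 145 with a median of 117. Control samples gave 133 ± 14.6 FPKM (SD, n = 12), from 102 to 156 with a median of 136. Of the hypertensive-LVH samples, 10 of 12 lay below the control median and 3 lay below every control sample. The log2 fold change was -0.18 ± 0.074 (SE), with an adjusted p of 0.0604 in limma. In bulk tissue, fewer cells of a type and less RNA per cell cannot be told apart. The summed FPKM of 10 markers of ventricular cardiomyocytes was 29097 to 41152 in hypertensive-LVH samples against 37430 to 47856 in control samples. The markers were split, as 4 passed as lower and 1 as higher, against 12.6% and 20.9% of all genes. The log2 fold change was above 0 for 4 of the 10. The sum is weighted to the most abundant markers, and its part in the difference of Gja1 was not tested.

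Gjc1 (chr11:102799579-102819700, minus strand) was 13.0 ± 2.69 FPKM in the hypertensive-LVH group, from 9.53 to 16.7 with a median of 11.9. The control level was 10.8 ± 1.75 FPKM, from 7.63 to 13.8 with a median of 11.0. In the hypertensive-LVH group 9 of 12 samples lay above the control median, and 4 samples at or above 16.0 FPKM lay above every control sample. The log2 fold change was 0.24 ± 0.097 with an adjusted p of 0.0604 in limma.

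The deposited values had been adjusted in 4 sets of samples, each made of samples with neighbouring numbers from both groups (1 to 3, 4 to 6, 7 to 9, 10 to 12), so each difference was also tested within these sets. The test was an exact permutation test, two-sided, with labels exchanged only within sets, and its p-values are not corrected for the 7 members. The deposited values were read as adjusted with use of the group labels, which the p-values do not allow for. For Gja1 the exact test gave p = 0.0410, with lower values in 3 of 4 sets. The log2 difference in samples 1 to 3 was -0.45, where all 3 hypertensive-LVH samples lay below the 3 control samples. In samples 4 to 6 it was 0.04. For Gjc1 the exact test gave p = 0.0422, and the log2 difference was largest in samples 4 to 6, at 0.73, and was -0.07, 0.06 and 0.23 elsewhere. When samples 4 to 6 were left out, the log2 difference of Gjc1 was 0.073 and the exact p was 0.504. Without samples 1 to 3 that of Gja1 was -0.092, with an exact p of 0.353.

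Gja5 (chr3:96904693-97077416, plus strand) was the most variable of the 7 genes. Hypertensive-LVH samples lay between 1.52 and 10.5 FPKM, with a median of 3.71 and a mean of 4.64 ± 2.58 (SD, n = 12). Control samples lay between 0.793 and 16.4 FPKM, with a median of 3.77 and a mean of 4.49 ± 3.94 (SD, n = 12). The groups covered each other, with 6 of 12 hypertensive-LVH samples above the control median. The log2 fold change was 0.13 ± 0.27, with an adjusted p of 0.739 in limma, and the sign differed between sets, at -0.76, 1.19, 0.35 and -0.28. In GENCODE 165 exonic bases of Gja5 are shared with Gpr89 on the opposite strand. Whether the counting used strand is not given in the sources used here, so the level of Gja5 is uncertain to that extent.

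The highest value of Gja5 in each group stood in a sample with high atrial markers. In control sample 2, at 16.4 FPKM of Gja5, the atrial myosin light chain genes Myl4 and Myl7 were at 1257 and 1443 FPKM and Sln, a regulator of the calcium pump in atrial muscle, was at 453 FPKM. In hypertensive-LVH sample 6, at 10.5 FPKM of Gja5, the same markers were at 967, 1040 and 296 FPKM. In the other 22 samples the sum of the 3 markers ranged from -170 to 624 FPKM, where 7 of the 24 values of each marker are negative after the authors' adjustment. Within their sets, hypertensive-LVH samples 1 and 4 were also high, at sums of 624 and 354 FPKM. Samples 2 and 3 of that group were at -170 FPKM and sample 5 at -108 FPKM. Without control sample 2 and hypertensive-LVH sample 6, a choice made after seeing the data, the log2 fold change of Gja5 was 0.19 with an adjusted p of 0.491 in limma. The other members kept their side of the threshold without them. The part of atrial tissue in the level of Gja5 was not tested.

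**Figure D2:**
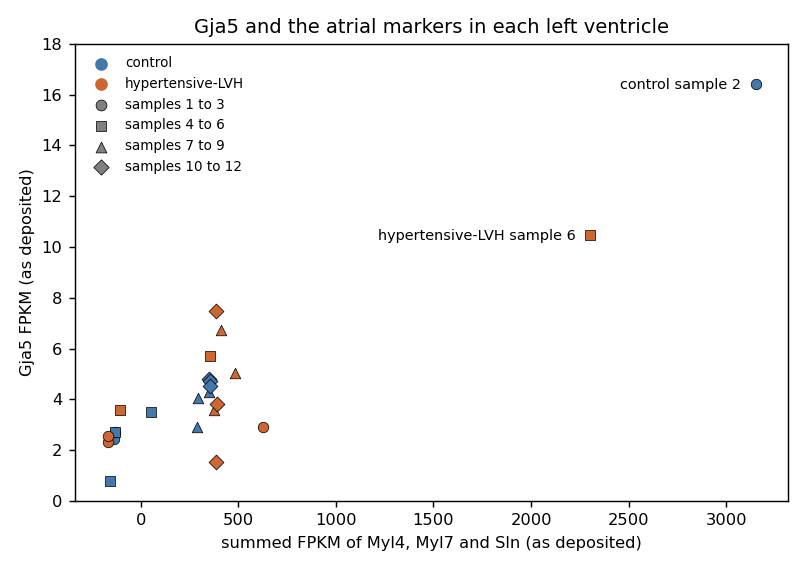
Gja5 in FPKM (vertical axis) is plotted against the summed FPKM of the atrial markers Myl4, Myl7 and Sln (horizontal axis) in the 24 left ventricles, with colours for the groups and marker shapes for the sample numbers. Control sample 2 lies at a sum of 3153 FPKM and hypertensive-LVH sample 6 at 2303 FPKM, apart from all others.

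The sum of the 3 connexins was 135 ± 21.3 FPKM in the hypertensive-LVH group and 148 ± 16.6 FPKM in the control group. Gja1 made up 87.1 ± 2.10% of this sum in the hypertensive-LVH group and 89.8 ± 2.67% in the control group (SD, n = 12 each). The difference of -2.63 percentage points gave p = 0.0207 in the exact permutation test within sets, and without samples 4 to 6 it was -1.39 points with an exact p of 0.235. Gjc1 made up 9.57 ± 1.11% of the sum in the hypertensive-LVH group and 7.30 ± 1.12% in the control group. The share of Gja5 was 3.29% and 2.93%. The 3 genes were adjusted gene by gene in each set, so the sum and the shares depend on the adjustment. Shares before it cannot be given, since the level of a set was not recovered.

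Of 17 other connexin genes, 10 were in the table analysed here and 7 reached the mean for testing. Of these 1 passed as higher and 1 as lower, against 20.9% and 12.6% of all genes. The median log2 fold change of the 7 was 0.06 against 0.05 over all genes. Gja4, the gene of the arterial endothelial connexin Cx37, rose from 10.1 ± 2.61 to 14.2 ± 3.14 FPKM, a log2 fold change of 0.47 with an adjusted p of 0.0107 in limma. It also had the highest level on this list. Gja3 fell from 9.17 ± 0.839 to 7.57 ± 0.980 FPKM, a log2 fold change of -0.25 with an adjusted p of 0.0032 in limma. The summed markers of arterial endothelial cells were 36.4 to 52.7 FPKM in hypertensive-LVH samples and 34.5 to 47.9 FPKM in control samples.

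Panx1 (chr9:15002128-15045478, minus strand) rose in the hypertensive-LVH group. Its lowest and highest values there were 1.64 and 5.59 FPKM, with a median of 3.17 and a mean of 3.40 ± 1.25 (SD, n = 12). The control values ran from 0.239 to 2.17 FPKM, with a median of 1.59 and a mean of 1.38 ± 0.657 (SD, n = 12). All 12 hypertensive-LVH samples lay above the control median, and all but sample 12, at 1.64 FPKM, lay above every control sample. In limma the log2 fold change was 0.90 ± 0.17 with an adjusted p of 3.56e-04, and the exact permutation test within sets gave p = 2.5e-05. The study had selected Panx1 as a candidate gene from its own samples, so this direction is not independent evidence.

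The size of the Panx1 difference varied between the sets. In samples 4 to 6 the deposited control values were 0.239, 0.516 and 0.298 FPKM. The hypertensive-LVH values were 3.43, 4.54 and 5.59 FPKM. The log2 difference there was 2.02, against 0.28, 0.69 and 0.60 in samples 1 to 3, 7 to 9 and 10 to 12. The level of a set was itself adjusted, so these control values cannot be set against those of other sets. A log2 difference depends on this level as well. A limma F test of the interaction of set and group gave an adjusted p of 0.00622 for Panx1, as 7.49% of all genes passed, and the adjusted p of the other members ranged from 0.122 to 0.916. Samples 4 to 6 also held the largest absolute difference for 49.6% of all genes tested. Without them the log2 fold change of Panx1 was 0.52 with an adjusted p of 0.0065 in limma.

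**Figure D3:**
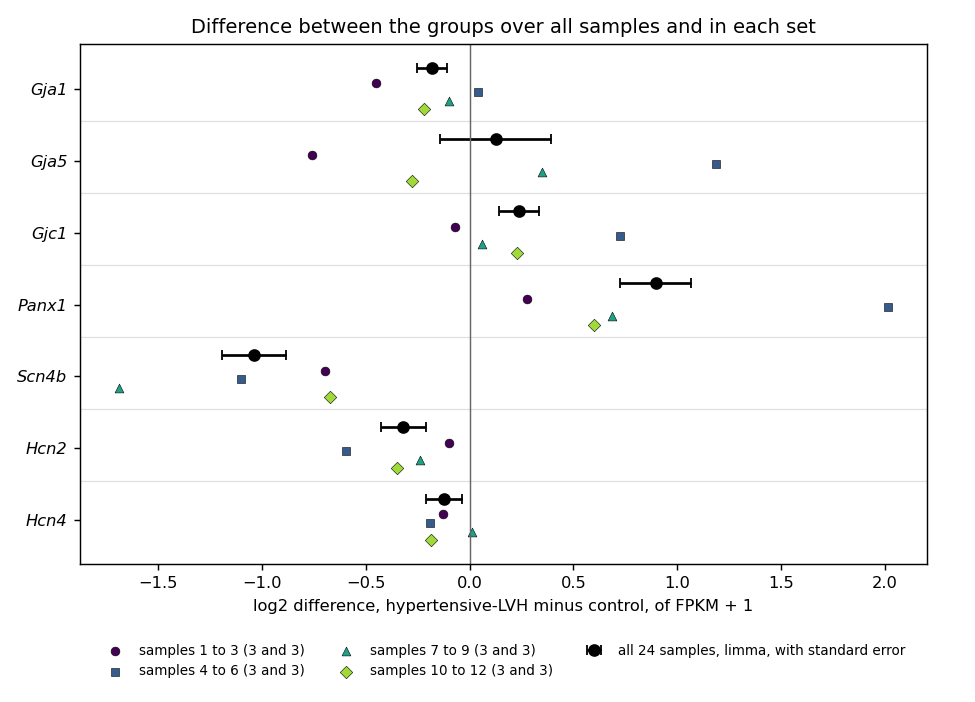
Differences between the groups in log2(FPKM + 1), hypertensive-LVH minus control, are plotted on the horizontal axis for each of the 7 genes. Black points with bars are limma fold changes over 24 samples with their standard errors, and small markers are differences of means of 3 and 3 samples within each set. Scn4b lies below 0 and Panx1 above 0 in all 4 sets, and Panx1 reaches 2.02 in samples 4 to 6.

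The spacing of the deposited values allowed the scaling of each set to be undone for all 7 members, which gives differences within a set but not the level of the set. Before the adjustment the mean difference of Panx1 within sets was 1.98 FPKM, with an exact permutation p of 4.875e-04. By set it was 0.197, 4.19, 1.97 and 1.55 FPKM. On this scale 9 of the 12 hypertensive-LVH samples lay above the control mean of their set. In samples 1 to 3 only hypertensive-LVH sample 1, at 1.04 FPKM above that mean, did so, and the others were at -0.293 and -0.153 FPKM. The deposited values of that set differed by 0.664 FPKM with the groups apart, whereas before the adjustment the groups overlapped.

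Markers of other cell types moved beside Panx1, which is not particular to muscle. All 7 macrophage markers passed as higher, against 20.9% of all genes. The sum of these 7 markers was 197 to 543 FPKM in hypertensive-LVH samples against 136 to 284 FPKM in control samples. Of 7 fibroblast markers 4 passed as higher and none as lower, with sums from 582 to 1923 and from 134 to 811 FPKM. Their part in the level of Panx1 was not tested.

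Of 11 other pannexin and extracellular ATP genes, 10 were tested. Of these 6 passed as higher and none as lower, against 20.9% and 12.6% of all genes. The 10 genes had a median log2 fold change of 0.25 against 0.05 over all genes, and with quantile normalization 5 passed as higher. P2ry6, a receptor for extracellular nucleotides, rose from 5.88 ± 1.71 to 10.1 ± 3.25 FPKM (SD, n = 12 each), a log2 fold change of 0.67 with an adjusted p of 0.0032 in limma. P2ry2, a receptor for ATP and UTP and the most abundant gene of the list, rose from 20.9 ± 2.69 to 25.0 ± 3.34 FPKM, with an adjusted p of 0.0126 in limma.

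Scn4b (chr9:45138395-45154152, plus strand) fell in the hypertensive-LVH group. Its change was the largest of the 7 genes on the log2(FPKM + 1) scale, whereas that of Panx1 was larger by the ratio of mean FPKM and with 0.1 added in place of 1, at log2 fold changes of 1.38 for Panx1 and -1.20 for Scn4b. Its values there spanned 2.30 to 7.39 FPKM, with a median of 4.22 and a mean of 4.48 ± 1.73 (SD, n = 12). Control samples held 6.68 to 14.7 FPKM, with a median of 9.47 and a mean of 10.0 ± 2.52 (SD, n = 12). All 12 hypertensive-LVH samples lay below the control median. Only samples 10 and 12, at 6.86 and 7.39 FPKM, overlapped with the control range, which began with control samples 2 and 5 at 6.68 and 6.74 FPKM. This gave a log2 fold change of -1.04 ± 0.15 with an adjusted p of 2.47e-05 in limma.

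Within each of the 4 sets all 3 hypertensive-LVH samples lay below all 3 control samples, with log2 differences of -0.70, -1.10, -1.69 and -0.67. The exact permutation test within sets gave p = 1.25e-05, the smallest it can give. Tested by limma within single sets of 3 and 3 samples, Gjc1, Panx1 and Scn4b passed an adjusted p of 0.05 in samples 4 to 6, as did 27.2% of the genes, and Scn4b passed in samples 7 to 9, as did 4.9%. In samples 1 to 3 and 10 to 12 no member passed in limma, where 0% and 0.279% of the genes did. At an unadjusted p under 0.05 these were Gja1 and Scn4b in samples 1 to 3, as were 1236 of 14028 genes, and Panx1 in samples 10 to 12, as were 1821 of 13973 genes.

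Scn4b, Panx1 and Hcn2 had the same direction in all 4 sets, as did 34.6% of all genes tested. Before the adjustment the mean difference of Scn4b was -5.83 FPKM, with the same exact p, and all 12 hypertensive-LVH samples lay below the control mean of their set, at -10.5 to -2.07 FPKM from it. Of the 10 ventricular cardiomyocyte markers 4 passed as lower and 1 as higher, against 12.6% and 20.9% of all genes. The troponin gene Tnni3, which fell most among the 10 markers, had a log2 fold change of -0.63. The part of cardiomyocyte content in the level of Scn4b was not tested.

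**Figure D4:**
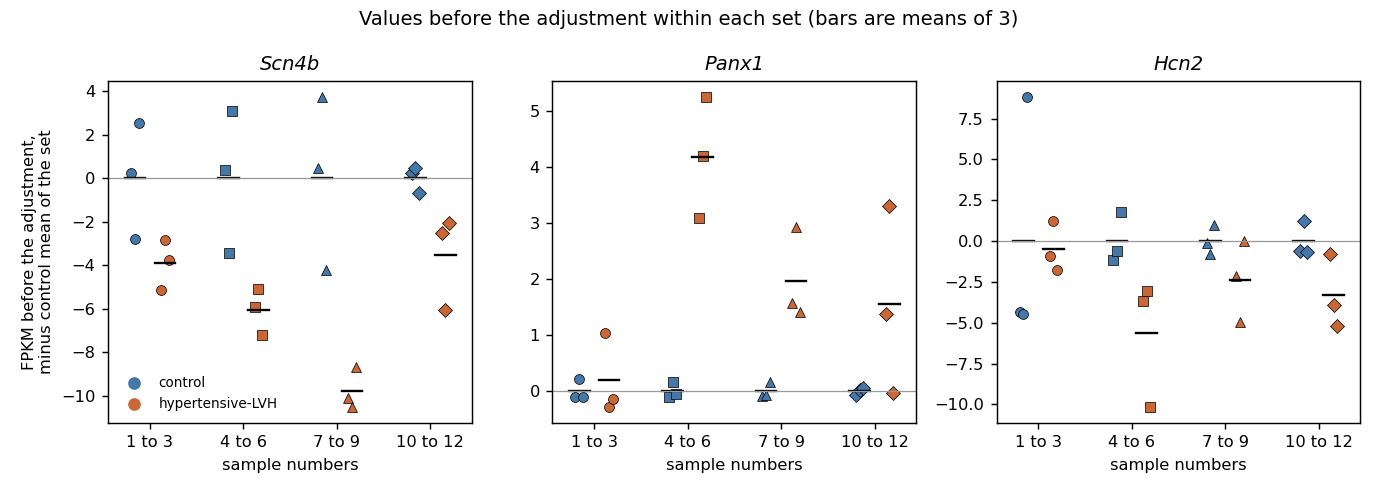
Values of Scn4b, Panx1 and Hcn2 before the adjustment are plotted in FPKM relative to the control mean of the set (vertical axis) for each set of sample numbers (horizontal axis), with black bars for means of 3 samples. All hypertensive-LVH samples of Scn4b lie below 0, from -10.5 to -2.07 FPKM, and those of Panx1 in samples 4 to 6 reach 5.27 FPKM.

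Of 20 other sodium channel genes and partners, 15 were tested. Of these 3 passed as higher and 3 as lower, against 20.9% and 12.6% of all genes. With quantile normalization 2 passed as higher and 6 as lower. Scn4a, the pore-forming subunit of skeletal muscle, fell from 8.34 ± 2.00 to 4.67 ± 1.45 FPKM, a log2 fold change of -0.74 with an adjusted p of 2.66e-04 in limma.

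Hcn2 (chr10:79716634-79736108, plus strand) was the more abundant pacemaker channel and fell in the hypertensive-LVH group. It spanned 6.68 to 15.9 FPKM there, with a median of 12.7 and a mean of 12.1 ± 2.66 (SD, n = 12). The control samples spanned 11.5 to 20.1 FPKM, with a median of 15.0 and a mean of 15.2 ± 2.47 (SD, n = 12). Of the hypertensive-LVH samples 10 of 12 lay below the control median and 4 lay below every control sample. The log2 fold change was -0.32 ± 0.11 with an adjusted p of 0.0251 in limma, and the exact permutation test within sets gave p = 0.0127.

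By set the log2 difference of Hcn2 was -0.10, -0.60, -0.24 and -0.35. Before the adjustment the mean difference was -2.95 FPKM with an exact permutation p of 0.0361, and 10 of 12 hypertensive-LVH samples lay below the control mean of their set. The call was lost without samples 4 to 6, where the log2 fold change was -0.23 with an adjusted p of 0.154, and without samples 10 to 12, where it was -0.31 with an adjusted p of 0.0943, both in limma.

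Hcn4 (chr9:58823412-58863175, plus strand) was 3.24 ± 0.628 FPKM in the hypertensive-LVH group, from 1.94 to 4.14 with a median of 3.18. Control samples gave 3.61 ± 0.688 FPKM, from 2.65 to 5.08 with a median of 3.55. The groups overlapped over most of their range. The log2 fold change was -0.12 ± 0.088 with an adjusted p of 0.281 in limma, and the exact permutation test within sets gave p = 0.218. Hcn2 divided by Hcn4 was 3.95 ± 1.45 in the hypertensive-LVH group and 4.25 ± 0.563 in the control group, and the log2 ratio of Hcn4 to Hcn2 differed by 0.20 with an exact permutation p of 0.212.

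Of 7 other pacemaker channel genes and partners, 5 were tested. Of these 2 passed as higher and none as lower, against 20.9% and 12.6% of all genes. With quantile normalization 1 passed as higher. Cav3, the gene of the muscle caveolin, had the highest level on the list, at 58.8 ± 9.96 and 61.7 ± 10.1 FPKM, with an adjusted p of 0.562 in limma. The summed level of 5 conduction system markers was 11.2 to 22.7 FPKM in hypertensive-LVH samples against 9.09 to 16.2 FPKM in control samples.

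Apart from the difference between the groups, some members varied together from mouse to mouse. The mean of each set and group was removed from log2(FPKM + 1), and 21 pairs of members were compared over 24 samples by permutation within set and group. After adjustment over the 21 pairs, 3 pairs passed by both Pearson's r and Spearman's rho. Samples of a set share its adjustment, whose part in these relations was not tested.

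Gja5 was high where Scn4b was low, with r = -0.79 (permutation p = 3e-05, adjusted p = 6.3e-04) and rho = -0.77 (permutation p = 0.00175, adjusted p = 0.0367). With the 2 samples of the most extreme Gja5 left out, r was -0.80, and r was -0.88 within the hypertensive-LVH group and -0.74 within the control group. Panx1 was also high where Scn4b was low, with r = -0.75 (permutation p = 0.0012, adjusted p = 0.0126) and rho = -0.65 (permutation p = 0.00534, adjusted p = 0.0472). Without the 2 farthest samples r was -0.61, and within the groups it was -0.82 and -0.86. Gja5 and Panx1 varied in the same direction, with r = 0.59 (permutation p = 0.00465, adjusted p = 0.0325) and rho = 0.63 (permutation p = 0.00675, adjusted p = 0.0472). Without the 2 farthest samples r was 0.61, and within the groups it was 0.83 and 0.52. Without control sample 2 and hypertensive-LVH sample 6, the samples with the highest deposited atrial markers, the 3 values of r were -0.80, -0.74 and 0.65. Other samples that were high within their set stayed in. For these checks and those without the 2 farthest samples, set and group means were taken over all samples. The samples left out thus still acted on the values of the others in their set and group. Hcn4 had no relation past the threshold, and its values of r ranged from -0.26 to 0.20.

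**Figure D5:**
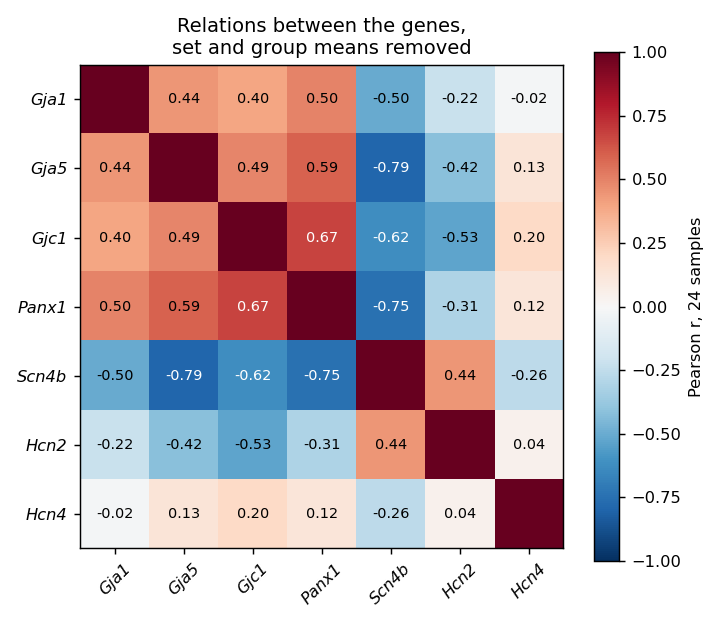
Pearson's r between each pair of the 7 genes is given by colour and number, from log2(FPKM + 1) in 24 samples with the mean of each set and group removed. Scn4b is opposed to Gja5 at -0.79 and to Panx1 at -0.75, and Gja5 and Panx1 stand at 0.59.

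On the same scale, with set and group means removed over 24 samples, each member was compared with the 11458 genes with a mean of at least 1 FPKM, and the 3 most alike genes were taken. These values of r are descriptions, since the samples share their sets. For Gja1 they were Spry2 (r = 0.88), an inhibitor of growth factor signalling, Ube2e1 (0.87) and Smarcd2 (0.85). For Gja5 they were Hacd2 (0.92), an enzyme of fatty acid elongation, Mrvi1 (0.92) and Atp10a (0.91), a phospholipid flippase. Those most like Gjc1 were Phactr1 (0.89), Gpc6 (0.85), a cell surface glypican, and Plekha4 (0.84). Panx1 was most like Frzb (0.91), a secreted antagonist of Wnt signalling, Cpt1c (0.91) and Pcolce (0.90), an enhancer of procollagen processing. The genes most like Scn4b were Isoc2a (0.85), Mlycd (0.85), which encodes malonyl-CoA decarboxylase, and Coq3 (0.83), an enzyme of ubiquinone synthesis. Hcn2 was most like Mrpl44 (0.93), a protein of the mitochondrial ribosome, Emc6 (0.92) and Cryba4 (0.91). For Hcn4 the values were lower, with Ddx19a at 0.73, Cntn2, a marker of the conduction system, at 0.71, and Rab4a at 0.70.

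The values of a sample summed to 460715 to 515185 FPKM in hypertensive-LVH samples and to 482319 to 567727 FPKM in control samples. No value of the 7 members was negative, although 0.766% of all values were. The depth of the libraries is unknown, since no counts were analysed here. Each sample is a mouse per the study's methods, and the summed ventricular markers were at 29097 FPKM or above in every sample.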

How the data were processed

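RNA of left ventricles was selected with oligo(dT) and sequenced in pairs of Illumina reads, and the submitters' processing notes name HISAT, Bowtie2 and RSEM without versions. The genome build is not given in the sources used here. The label on RNA extraction speaks of cells of another kind, whereas the tissue label is left ventricle. The authors deposited 1 FPKM value per gene and sample. Of these values 2741 were negative, and between 218 and 546 genes were exactly tied in pairs of samples of 1 group within samples 1 to 3, 4 to 6, 7 to 9 and 10 to 12, against 0 to 12 in other pairs. The deposited FPKM were therefore read as adjusted gene by gene in these 4 sets, a step the study's methods do not name. The study used more samples per group than the 12 analysed here.

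Negative values were set to 0 and genes with a mean of at least 0.1 FPKM were tested with limma 3.58.1 (R 4.3.3) with an intensity trend on log2(FPKM + 1), with Benjamini-Hochberg adjustment over 14026 genes. Log2 fold changes are on this scale, which understates the change of low genes, and plain folds are ratios of mean FPKM. The thresholds, an adjusted p of 0.05 and an absolute log2 fold change of 0.5, follow the study. Exact tests used all 160000 relabelings within sets and relations 100000 permutations, run in scipy 1.17.1, numpy 2.4.6 and pandas 2.3.3 under Python 3.11.15. All tests were two-sided. Values before the adjustment were recovered from the spacing of the deposited values, in steps of 0.01 FPKM within a tolerance of 0.0001. The recovery took the adjustment as a shift and a scale per set around a group difference common to the sets. Each member fitted this form within the tolerance. The group labels enter it, and p-values from tests on the deposited values, by limma or permutation, do not allow for that. The scripts were tested on simulated data. Promoters came from RefSeq on GRCm38.p6 and gene positions from GENCODE vM21.

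The members and gene lists were chosen with earlier results of these data known. Named are the 7 members, the 3 genes most like each, and from each list the genes with the largest called increase, the largest called decrease and the highest level, of which some are not reported here. No source ties same-numbered samples of the groups to a shared animal, litter or day. Their deviations correlated negatively, between -0.557 and -0.001. The adjustment acted on both groups of a set together, so these correlations cannot decide whether such samples were paired.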

Additional observations from a re-analysis of the deposited data

Results flagged for a closer look

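Panx1 differed between the sets of samples in the size of its difference between the groups. The limma F test of the interaction of set and group on log2(FPKM + 1) gave an adjusted p of 0.00622. The log2 difference, hypertensive-LVH minus control, was 2.02 in the set of samples 4 to 6. The sets of samples 1 to 3, 7 to 9 and 10 to 12 gave 0.28, 0.69 and 0.60, so all sets had the same direction. With 0.1 added in place of 1 the adjusted p was 5.67e-04, and with quantile normalization it was 0.0126. The log2 differences by set depend on the adjusted level of each set. Before the adjustment the FPKM differences, in the order of sample numbers, were 0.197, 4.19, 1.97 and 1.55. What differs between the sets is not given in the sources used here.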

How the results depend on the processing

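Panx1 and Scn4b kept their direction and their adjusted p under 0.05 in all 24 limma fits that left out 1 sample and in the other 14 alternatives, by limma or, in 1 of them, the Wilcoxon rank-sum test. These changed the pseudocount, filter, scaling, variance prior, test, block, set term and samples. Leaving out 1 sample gave log2 fold changes from 0.82 to 0.96 for Panx1, from -1.10 to -0.98 for Scn4b and from -0.36 to -0.25 for Hcn2, called in all 24 fits. The number of members called ranged from 3 to 4, and the genes called from 4038 to 5160. The genes also past the fold threshold ranged from 715 to 979. Gja1 was called in 5 of these fits and Gjc1 in 4, Gja5 and Hcn4 in none. Gja5 spanned -0.0021, without control replicate 6 (adjusted p 0.996), to 0.30, without control replicate 2. Scaling by median ratios called Gja1 as well, at -0.22 with an adjusted p of 0.0102, and leaving out samples 1 to 3 called Gjc1, at 0.34 with an adjusted p of 0.0301.

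Among all genes, 4697 were called, 2810 of 14004 tested without samples 4 to 6, and those past the fold threshold as well numbered 831, 553 without samples 4 to 6 and 1489 with 0.1 added in place of 1. Without samples 4 to 6 Gja5 turned to -0.23 (adjusted p 0.587, exact p 0.543 within sets) and Gja1 was called at -0.26 (adjusted p 0.0382). Without these samples the exact permutation tests within sets gave 0.073 for Gjc1 (p = 0.504), -0.23 for Hcn2 (p = 0.0933) and -1.39 percentage points for the share of Gja1 (p = 0.235). Without samples 10 to 12 they gave -0.17 for Gja1 (exact p = 0.089), 0.24 for Gjc1 (exact p = 0.0903), -0.31 for Hcn2 (exact p = 0.0595) and -2.74 points for the share (exact p = 0.0673). Without samples 7 to 9 the share differed by -2.89 points (exact p = 0.0525), and without samples 1 to 3 Gja1 by -0.092 (exact p = 0.353). Before the adjustment Gja5 differed by -0.99 FPKM (exact p = 0.935) and Gjc1 by 2.10 FPKM (exact p = 0.0605). Leaving out a set also leaves fewer samples, and other causes were not tested. With 0.1 added, 2 pairs of members passed in the relations in place of 3.

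Replicate numbers are shared by the groups. The deviations of same-numbered samples correlated between -0.557 and -0.001, above 0.1 in 0 of 12 pairs, and 0 samples correlated best with their own number. Both groups of a set were adjusted together, so these correlations cannot decide whether the samples were paired. With the replicate number as a block 2824 genes and 2 members were called, and the adjusted p of Hcn2 was 0.0634. The values rest on an adjustment that could not be undone between sets, and without counts the precision of the low genes Panx1, Hcn4 and Gja5 is unknown.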

Other observations

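Factors of the T-box, homeobox and related families that pattern the conduction system were described as well. Of 17 such genes 16 were tested, with a median log2 fold change of 0.03. Of these 2 passed as higher and 3 as lower, against 20.9% and 12.6% of all genes. With quantile normalization 2 passed as higher and 5 as lower. Hopx, a homeodomain cofactor of the heart and the most abundant of these genes, fell from 152 ± 23.3 to 84.2 ± 21.3 FPKM (SD, n = 12 each), a log2 fold change of -0.87 with an adjusted p of 1.07e-05 in limma. Id2, an inhibitor of helix-loop-helix factors, rose from 8.51 ± 2.70 to 12.4 ± 3.71 FPKM, a log2 fold change of 0.50 with an adjusted p of 0.0153 in limma.

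None of 9 intercalated disc genes that anchor gap junctions or join cells passed in limma, against 33.5% of all genes. Of the 9, 4 had an unadjusted p under 0.05 in limma, 1 passed with the Wilcoxon rank-sum test and 1, as lower, with quantile normalization. Dsp, the desmoplakin gene and the most abundant of them, was 160 ± 24.4 FPKM in the hypertensive-LVH group and 157 ± 22.5 FPKM in the control group, with an adjusted p of 0.831 in limma. Of the remaining marker lists, endothelial cells and smooth muscle with pericytes each had 1 gene higher and 1 lower, arterial endothelial cells had 1 higher, skeletal muscle had 1 lower, and 0 of 3 atrial and 0 of 4 Schwann cell markers passed in limma, with 0 at an unadjusted p under 0.05 in either of these.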
